A study of Mus musculus with 4 samples.

Results

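The genes described here encode ephrins and Eph receptors, semaphorins with their plexin and neuropilin receptors, Slit ligands with Robo receptors, and netrins with theirs. They were taken from a list of 57 symbols. A gene was included when the platform annotation tied at least 1 probe set to its symbol alone, and the brightest of its probe sets, by mean over the 4 arrays, stood for it. This gave 56 of the 18193 genes named in the table, measured by 140 probe sets, and Ephb2 was not analysed here. Of the 56 genes, 42 had a mean signal above 35.1, the median of all values, and were tested. The samples were undifferentiated mouse embryonic fibroblasts grown as 3T3 lines and collected at confluency. One group of 2 arrays came from wild-type cells and the other group of 2 arrays from SMRTmRID cells, whose corepressor SMRT carries altered receptor interaction domains. SMRT is recruited by nuclear receptors to hold their target genes silent. No other allele, agent or time point is named for either group. The labels describe the arrays of a genotype as technical replicates and do not say how many lines or embryos stood behind them, so p-values measure only the spread between these arrays. The transcript of the mutated gene was not analysed here, and the genotype labels were therefore not checked against it.

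Guidance molecules were named for steering axons and also act in fibroblasts, where they set cell shape, adhesion and migration. Ephrins and Eph receptors are both bound to membranes, the A-type ephrins by a lipid anchor and the B-type ephrins by a transmembrane segment, so that signalling needs contact between neighbouring cells and can run in either direction. Secreted semaphorins act mostly through a complex of a neuropilin, which binds the ligand, and a plexin, which signals, whereas membrane-bound semaphorins bind plexins directly. Slits repel cells through Robo receptors. Netrins act through Dcc and its relative neogenin, and through the Unc5 receptors, which mediate repulsion.

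Pearson's r across the 11057 tested genes was 0.991 within each genotype and 0.860 to 0.861 between genotypes. For beta-actin, the 3′ control probe set over the 5′ one, a check on RNA quality, gave 1.19 to 1.20 on all arrays. The same ratio for Gapdh was 0.755 to 0.773. The fibroblast genes Col1a1, Col1a2, Col3a1, Vim, Fn1 and S100a4 had signals of at least 7567 on every array, whereas Thy1, Dcn and Pdgfra were at 6.57 to 262 in wild-type and at 3172 to 8878 in SMRTmRID. Of these 9 genes, all tested, 5 were called higher, Col1a2, Col3a1, Pdgfra, Thy1 and Dcn, and 3 lower, Vim, Fn1 and S100a4. Among all tested genes 30.3% were higher and 35.0% lower. Thy1 passed the filter through SMRTmRID only, and without a filter Col1a2 and Vim were not called. The 8 endothelial markers, which include Robo4 of the wider pathway list described last, had signals of 0.702 to 44.3, none above the filter, with sums of 96 and 109 for wild-type against 112 and 100 for SMRTmRID. Of 9 neuronal markers 3 were tested and all 3 fell (Stmn2, Tubb3 and Map2), beside 35.0% of all tested genes called lower. The other 6 had signals of 3.66 to 42.4 and were not tested. The summed neuronal signal went from 1520 and 1548 to 338 and 359, mostly through Stmn2 (948 and 1011 against 22.4 and 22.6), which passed the filter through wild-type only. Of 5 neural crest and glial markers 3 were tested and 1 fell, Nes (409 and 368 against 66.6 and 92.9), with sums of 506 and 470 against 219 and 212. Sox10 and Gfap did not pass, and Ngfr, below the filter, read 7.58 and 8.44 against 31.2 and 36.1 and was called higher when no filter was used (adjusted p = 0.0167). Of 7 epithelial markers 2 were tested and 1 fell, Epcam (sums 332 and 340 against 257 and 280). Without a filter Epcam was not called (adjusted p = 0.0548 by limma). Cdh1, below the filter, read 55.9 and 42.3 against 2.41 and 1.61 and was called lower when no filter was used (adjusted p = 0.00148). Of 6 skeletal muscle markers 1 was tested and fell (sums 383 and 227 against 98 and 81). Of 7 blood cell markers 4 were tested and 2 rose, Lyz2 and Cd14 (sums 534 and 334 against 568 and 540). Lyz2 passed the filter through SMRTmRID only. Such counts of few tested markers stand beside the 30.3% higher and 35.0% lower of all tested genes. The muscle marker that fell was Acta1, which passed the filter through wild-type only, and without a filter Myog (log2 difference 0.96, adjusted p = 0.0134) and Des (0.91, adjusted p = 0.0412) were called higher. Stmn2, Tubb3, Map2, Nes, Epcam and Acta1, and Cdh1 without a filter, went the same way as the guidance genes that fell. Vim, Fn1 and S100a4 also went that way. Lyz2 and Cd14, and Ngfr, Myog and Des without a filter, went the other way, as did Col1a2, Col3a1, Pdgfra, Thy1 and Dcn. The part of other cell types in the results for guidance genes was not tested. In such bulk samples fewer cells of a type and less RNA per cell cannot be told apart.

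Guidance genes differed between the genotypes in both directions, with Slit2 and Slit3 at the top and Ntn1, Efna5 and Ntn4 at the bottom. Of the 42 tested genes, 14 were higher and 18 lower in SMRTmRID, at a Benjamini-Hochberg adjusted p under 0.05 by limma. That is 76.2% called, against 65.2% of all 11057 tested genes, of which 30.3% were higher and 35.0% lower. The median log2 difference was -0.11 for the guidance genes and -0.05 for all genes. Differences throughout are SMRTmRID minus wild-type in log2(signal + 16), so that changes from a low level come out too small. At least 2-fold differences were called upward for 7 and downward for 10 of the 42 genes, against 9.69% and 6.79% of all genes. The median size of a difference without its sign was 0.75 in the guidance genes and 0.43 in all genes. No overlap between the genotypes' arrays was seen in 35 of the 42 genes (83.3%) and in 81.5% of all genes. The filter let 4 guidance genes pass through 1 genotype only: Sema3e, Sema4a and Sema6d through SMRTmRID, and Ntn4 through wild-type, so that these had to differ. Of all tested genes 7.41% passed in that way. Without a filter 11 of the 56 genes were higher and 19 lower, against 17.8% and 19.8% of all 18193 genes, and 37.6% in either direction.

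**Figure D1:**
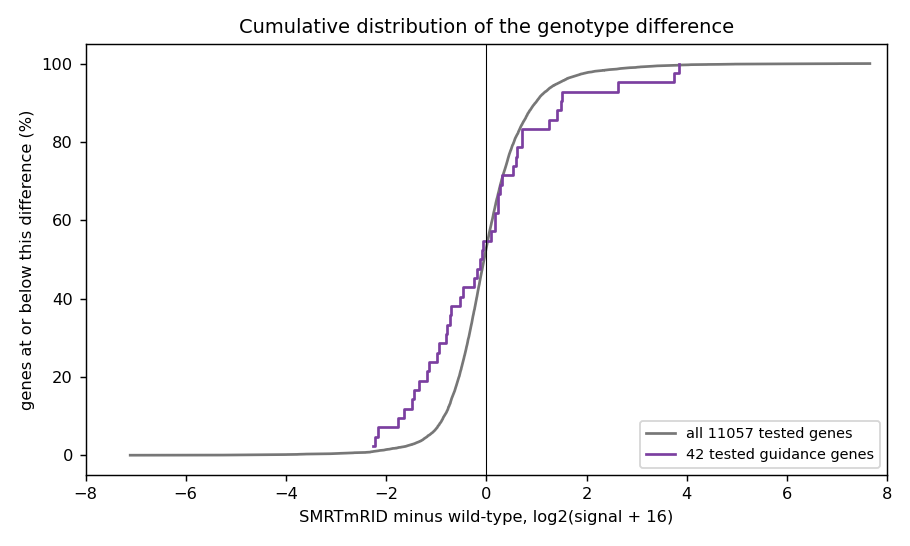
Cumulative share of genes (vertical axis, percent) at or below each genotype difference (horizontal axis, SMRTmRID minus wild-type, log2(signal + 16)). The grey line is all 11057 tested genes and the purple steps are the 42 tested guidance genes, which span -2.26 (Ntn1) to 3.84 (Slit3).

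**Figure D2:**
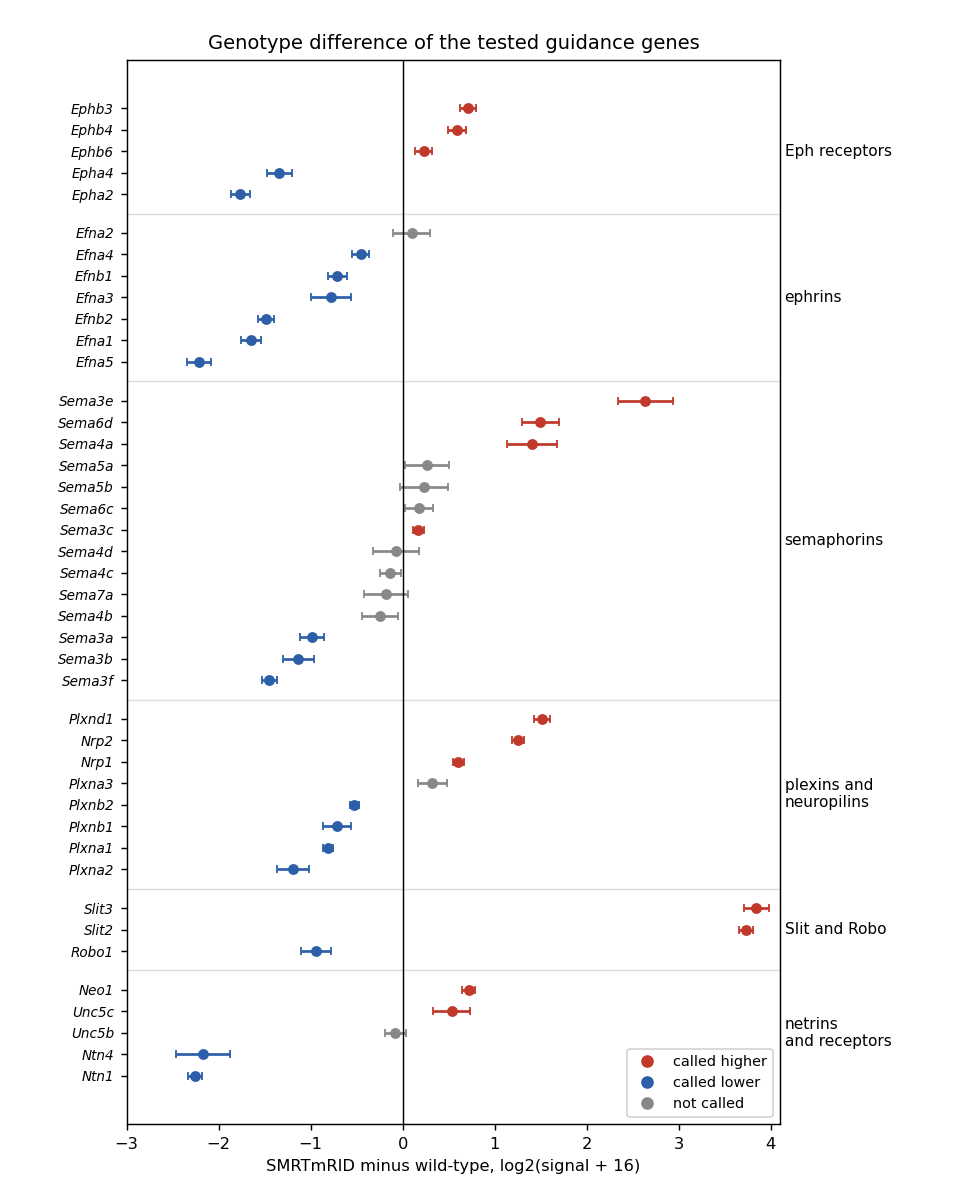
Difference between genotypes for each tested guidance gene (SMRTmRID minus wild-type, log2(signal + 16)), grouped by family. Points are limma estimates over 2 arrays per genotype, bars are standard errors, and colours mark genes called higher, called lower or not called at an adjusted p under 0.05. In the ephrin group 6 of 7 genes lie below 0, and the highest points are Slit3 and Slit2.

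The start regions of the genes with the greatest differences are shown to let the sequence be read beside the expression values. They are the 250 bases before the start site in RefSeq's annotation of the build GRCm38.p6, for the 3 greatest rises and the 3 greatest falls among genes with an entry. Ntn1, Sema3f, Sema3b, Plxna1, Slit1, Efnb3, Sema6a and Dcc had no entry, and the other 48 genes matched. Short motifs were searched on both strands and are in capitals: AGGTCA, the half-site that many nuclear receptors bind, the GC box GGGCGG, and the TATA box TATAAA. Matches to different motifs did not overlap in the windows shown, although GC boxes overlapped each other in Slit3 and Ntn4.
Slit3, chr11:35121206-35121455, plus strand: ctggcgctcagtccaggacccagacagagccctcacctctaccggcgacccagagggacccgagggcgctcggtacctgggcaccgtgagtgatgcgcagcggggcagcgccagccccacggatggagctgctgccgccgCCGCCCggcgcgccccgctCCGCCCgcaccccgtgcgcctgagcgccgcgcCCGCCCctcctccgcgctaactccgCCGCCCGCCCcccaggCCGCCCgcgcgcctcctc
Slit2, chr5:47982905-47983154, plus strand: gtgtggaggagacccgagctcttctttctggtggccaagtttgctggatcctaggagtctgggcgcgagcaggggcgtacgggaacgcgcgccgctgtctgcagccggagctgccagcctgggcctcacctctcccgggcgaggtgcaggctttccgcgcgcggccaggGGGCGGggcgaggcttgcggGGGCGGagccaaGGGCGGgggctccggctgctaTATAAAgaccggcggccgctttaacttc
Sema3e, chr5:14025026-14025275, plus strand: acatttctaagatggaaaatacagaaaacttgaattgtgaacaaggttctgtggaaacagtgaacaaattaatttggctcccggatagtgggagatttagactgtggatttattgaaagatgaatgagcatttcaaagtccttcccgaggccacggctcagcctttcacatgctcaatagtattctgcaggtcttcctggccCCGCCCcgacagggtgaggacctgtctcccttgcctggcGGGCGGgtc
Efna5, chr17:62881318-62881567, minus strand: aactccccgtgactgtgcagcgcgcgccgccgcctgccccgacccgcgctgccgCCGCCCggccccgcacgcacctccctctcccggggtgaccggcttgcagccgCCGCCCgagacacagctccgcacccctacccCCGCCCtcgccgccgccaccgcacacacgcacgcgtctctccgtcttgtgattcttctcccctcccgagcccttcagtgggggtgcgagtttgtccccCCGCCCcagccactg
Ntn4, chr10:93640799-93641048, plus strand: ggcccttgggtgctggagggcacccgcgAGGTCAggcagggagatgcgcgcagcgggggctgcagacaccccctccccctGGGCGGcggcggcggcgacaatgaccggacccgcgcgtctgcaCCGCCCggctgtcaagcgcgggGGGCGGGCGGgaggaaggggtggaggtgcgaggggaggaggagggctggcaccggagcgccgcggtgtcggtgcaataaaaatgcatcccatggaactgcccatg
Epha2, chr4:141300971-141301220, plus strand: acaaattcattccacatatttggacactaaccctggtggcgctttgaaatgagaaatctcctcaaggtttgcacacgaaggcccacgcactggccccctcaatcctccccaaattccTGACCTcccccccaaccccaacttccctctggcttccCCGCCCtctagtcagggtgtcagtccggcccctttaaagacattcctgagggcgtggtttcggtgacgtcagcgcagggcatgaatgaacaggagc
The windows of Slit3, Slit2, Sema3e and Efna5 held no AGGTCA, and those of Ntn4 and Epha2 held 1 each, 222 and 133 bases before the start. GC boxes numbered 6 in Slit3, 4 in Efna5 and in Ntn4, 3 in Slit2, 2 in Sema3e and 1 in Epha2, and Slit2 also had a TATA box 28 bases before its start. Over the 48 guidance genes with an entry 7 windows (14.6%) held AGGTCA, against 13.8% of 27025 genes of all kinds and 12.5% of 17491 protein-coding genes. It was present in 2 of 14 windows of genes called higher and in 2 of 14 of genes called lower. GC boxes were in 36 of the 48 windows, against 8907 of 27025 for all genes and 42.7% of protein-coding genes, and the median GC content was 64.8% in the guidance genes and 55.2% in protein-coding genes. TATAAA was in 2 of 48 (4.17%), against 12.4% of protein-coding genes. A match describes the letters in the window and no more.

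Ephrins, the ligands of Eph receptors, were lower in SMRTmRID wherever they passed the test. Of 7 tested ephrin genes 6 fell and 1 did not pass, beside 35.0% lower and 30.3% higher among all tested genes. The median of the ephrins was -0.78 log2 units. By limma 0 rose, also 0 at an unadjusted p under 0.05. Efna5, an A-type ephrin, had signals of 427 and 377 on the wild-type arrays and 81.9 and 66.8 on the SMRTmRID arrays. All 4 arrays kept the order of the genotypes, and the mean signal was 5.41 times as high in wild-type, a shift of -2.21 ± 0.13 log2 units (SE) with an adjusted p of 5.59e-07. Its second probe set, below the filter, read 55.6 and 39.5 against 2.13 and 3.51. Efna1, the ephrin first found as a cytokine-induced endothelial product, went from 351 and 384 to 104 and 108, a shift of -1.65 ± 0.11 log2 units (SE) with an adjusted p of 1.15e-06. Both of its probe sets showed the fall, the other with a log2 difference of -2.12. Efnb2, a B-type ephrin known as an arterial marker, read 572 and 556 on the wild-type arrays against 182 and 201 on the SMRTmRID arrays, a shift of -1.48 ± 0.09 log2 units (SE) with an adjusted p of 4.93e-07. Its 3 other probe sets gave log2 differences between -1.17 and -0.86.

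The remaining ephrins changed less. Efna3 read 79.2 and 80.4 on the wild-type arrays against 44.7 and 35.3 on the SMRTmRID arrays, close to the filter, a shift of -0.78 ± 0.21 log2 units (SE) with an adjusted p of 0.00968. Efnb1, whose loss disturbs cell sorting in the developing skull, went from 341 and 337 to 188 and 215, a shift of -0.71 ± 0.10 log2 units (SE) with an adjusted p of 0.000184. Its probe sets were less even than those of Efnb2: a second one had signals of 257 and 217 against 239.9 and 206, which overlap, and with that probe set the difference of -0.08 missed the threshold (adjusted p = 0.590, and 6.98e-07 to 0.590 over 14 alternatives). Efna4 fell from 311 and 323 to 218 and 235, a log2 difference of -0.46. Efna2 had overlapping signals of 111 and 77.2 against 113 and 89.1 and was not called (log2 difference 0.10 ± 0.20 SE, adjusted p = 0.690), and Efnb3 was between 15.9 and 39.3 and was not tested.

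Eph receptors, receptor tyrosine kinases for ephrins, split by type among the genes tested. Both tested A-type receptors fell and the 3 tested B-type receptors rose, which is a description of 5 genes and was not tested as a difference between types. Among all tested genes 35.0% were lower and 30.3% higher. Epha2, a receptor widely expressed in cultured and tumour cells, read 627 and 543 on the wild-type arrays against 150.4 and 170.4 on the SMRTmRID arrays. Its mean was 3.65 times as high in wild-type, a shift of -1.77 ± 0.10 log2 units (SE) with an adjusted p of 5.01e-07. Epha4, which binds both ephrin types, went from 222 and 204 to 73.9 and 74.6, a shift of -1.34 ± 0.14 log2 units (SE) with an adjusted p of 1.97e-05, and its 3 other probe sets above the filter gave -1.39 to -0.84. In each of these genes the arrays of the genotypes lay far apart compared with the gap between replicates.

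Among B-type receptors the differences were smaller. Ephb3 read 255 and 249 on the wild-type arrays against 405 and 439.9 on the SMRTmRID arrays, a shift of 0.71 ± 0.09 log2 units (SE) with an adjusted p of 6.35e-05. Ephb4, the partner of ephrin-B2 in vessel formation, had 250.1 and 242 against 411 and 349, a shift of 0.59 ± 0.10 log2 units (SE) with an adjusted p of 0.000582, while its ligand gene Efnb2 was lower. Ephb6, which lacks kinase activity, had 263 and 278 against 309.8 and 328, a shift of 0.23 ± 0.09 log2 units (SE) with an adjusted p of 0.0489. That call was lost when any array was left out, with an adjusted p of 0.169 without wild-type replicate 1, 0.0621 without wild-type replicate 2, 0.0690 without SMRTmRID replicate 1 and 0.193 without SMRTmRID replicate 2. It was also lost with median centring (0.340). Over 14 alternatives the adjusted p of Ephb6 ran from 0.0347 to 0.340. Epha1, Epha3, Epha5, Epha7 and Ephb1 were not tested, with signals of 2.84 to 58.2. Of these Epha7, on its brightest probe set, read 56.1 and 58.2 for wild-type against 2.84 and 3.35 for SMRTmRID, and it was called lower when no filter was used (log2 difference -1.94, adjusted p = 0.00102). Its 3 other probe sets had signals of 5.14 to 41.1 and log2 differences between -0.42 and 0.31.

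**Figure D3:**
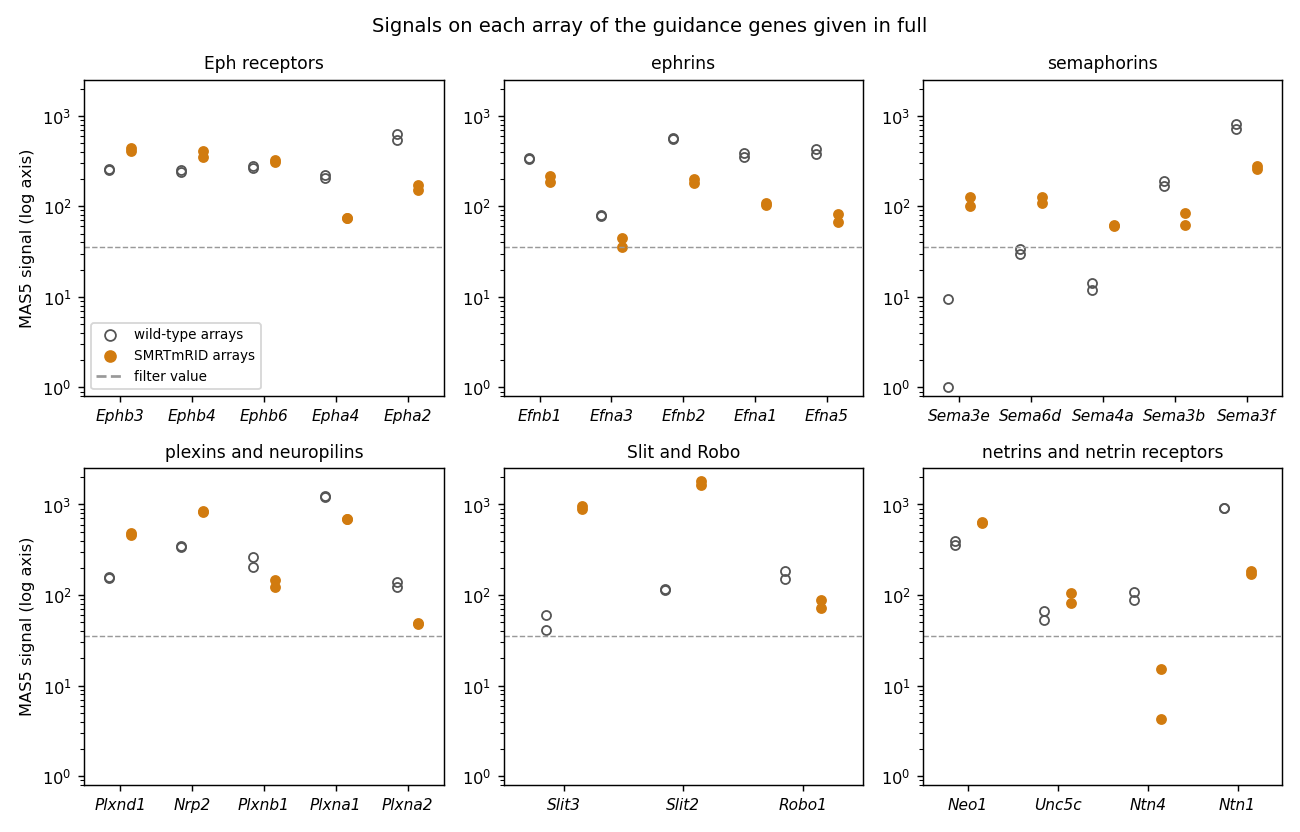
MAS5 signal (log axis) on each array of the 27 guidance genes with the greatest called differences, up to 5 per family. Open circles are the 2 wild-type arrays, filled circles the 2 SMRTmRID arrays, and the dashed line is the filter value of 35.1. The genes were chosen among those without overlap between genotypes, and Sema3e, Sema6d, Sema4a and Ntn4 lie below the line in 1 genotype.

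Secreted semaphorins changed in both directions, and the fall was shared by Sema3a, Sema3b and Sema3f. Sema3f, which signals through neuropilin-2, read 721 and 806 on the wild-type arrays against 258 and 279 on the SMRTmRID arrays, a shift of -1.45 ± 0.08 log2 units (SE) with an adjusted p of 4.20e-07. The mean was 2.84 times as high in wild-type. Sema3b, a candidate tumour suppressor, went from 168 and 191 to 84.2 and 62.5, a shift of -1.14 ± 0.17 log2 units (SE) with an adjusted p of 0.000248, with both other probe sets above the filter at -1.19 and -1.04. Sema3a, the ligand that collapses growth cones through neuropilin-1, had 235 and 221 against 115 and 99.8, a log2 difference of -0.98 (adjusted p = 0.000108).

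Sema3e moved the other way. This ligand, unlike most secreted semaphorins, binds plexin-D1 without needing a neuropilin, and it read 1.02 and 9.40 on the wild-type arrays against 127 and 101 on the SMRTmRID arrays. The log2 difference was 2.64 ± 0.30 (SE, adjusted p = 3.89e-05). Sema3e passed the filter through SMRTmRID only, which fixed the direction of its difference. Its 3 other probe sets, all below the filter on average, were at 1.01 to 18.6 in wild-type and 40.4 to 70.8 in SMRTmRID. Sema3c had 991 and 1075 against 1144 and 1179, a log2 difference of 0.17 that passed (adjusted p = 0.0300). Leaving out wild-type replicate 1 (difference 0.11, adjusted p = 0.182), SMRTmRID replicate 1 (0.0504) or SMRTmRID replicate 2 (0.117) ended that call, as did median centring (0.526), and the adjusted p ran from 0.00791 to 0.871 over 14 alternatives. Its second probe set went from 500.2 and 508 to 455 and 454, a log2 difference of -0.15 that did not pass (adjusted p = 0.104). Sema3d had signals of 1.68 to 19.1 and was not tested. Of the 5 tested secreted semaphorins, 2 thus rose and 3 fell, beside 30.3% higher and 35.0% lower among all tested genes.

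Membrane-bound semaphorins held most of the genes that did not pass. Of 9 tested, 2 rose and 7 did not pass, beside 30.3% higher and 35.0% lower among all tested genes. The median was 0.17 log2 units. Both genes that rose passed the filter through SMRTmRID only, which fixed the direction of their differences. By limma 0 fell, also 0 at an unadjusted p under 0.05. Sema6d, a transmembrane ligand of the plexin-A receptors, read 33.9 and 29.5 on the wild-type arrays against 127 and 110.1 on the SMRTmRID arrays, a shift of 1.49 ± 0.20 log2 units (SE) with an adjusted p of 0.000131. A second probe set of Sema6d had 42.3 and 40.5 against 58.9 and 42.5, 0.21 log2 units apart, which missed the threshold (adjusted p = 0.480, and 2.39e-06 to 0.480 over 12 alternatives). Sema4a, known from immune cells, went from 14.4 and 12.0 to 61.9 and 60.5, a shift of 1.40 ± 0.27 log2 units (SE) with an adjusted p of 0.00139, with its second probe set at 3.26 and 12.6 against 33.8 and 22.6. The genes that did not pass, Sema4b, Sema4c, Sema4d, Sema5a, Sema5b, Sema6c and Sema7a, had log2 differences between -0.25 and 0.27 and adjusted p-values between 0.285 and 0.815. Among them Sema4b had 114 and 117 against 117 and 75.7 and passed only without SMRTmRID replicate 1 (log2 difference -0.52, adjusted p = 0.0455, and 0.0455 to 0.955 over 12 alternatives). The 3 probe sets of Sema5a above the filter differed in direction, at 0.27, 0.16 and -0.43, and the brightest passed only in the fit without a variance trend (adjusted p = 0.0494, and up to 0.952 over its alternatives). Sema4f, Sema6a and Sema6b had signals of 2.67 to 18.1 and were not tested.

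Of 6 tested plexins, the signalling receptors of semaphorins, 4 fell, 1 rose and 1 did not pass, beside 35.0% lower and 30.3% higher among all tested genes. Plxna2 read 138 and 124 on the wild-type arrays against 48.9 and 47.5 on the SMRTmRID arrays, a shift of -1.19 ± 0.18 log2 units (SE) with an adjusted p of 0.000233, and its 3 other probe sets gave -1.32 to -0.93. Plxna1, the partner of neuropilin-1 in the response to Sema3a, went from 1225 and 1213 to 686 and 687, a shift of -0.81 ± 0.05 log2 units (SE) with an adjusted p of 1.12e-06. Plxnb1, the receptor of Sema4d, had 262 and 202 against 122 and 146, a shift of -0.72 ± 0.15 log2 units (SE) with an adjusted p of 0.00210. Replicates of Plxnb1 differed more than those of Plxna1, and the genotypes still did not overlap. Plxnb2 fell from 2158 and 2222 to 1539 and 1491, a log2 difference of -0.53 (adjusted p = 9.78e-06).

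Plxnd1, the receptor of Sema3e, was the plexin that rose. Its wild-type arrays read 153 and 157 and its SMRTmRID arrays 488 and 457, 3.05 times as high on average, a shift of 1.51 ± 0.09 log2 units (SE) with an adjusted p of 6.21e-07. Ligand and receptor of this pair were both higher in SMRTmRID. Plxna3 had 216 and 154 against 214 and 252, which overlap, and was not called (log2 difference 0.32, adjusted p = 0.0960). It passed without wild-type replicate 1 (0.54, adjusted p = 0.00910), with the mean of its probe sets (adjusted p = 0.0338) and with a replicate block (0.0412), within a range of 0.00910 to 0.567 over 14 alternatives. Plxnc1 had signals of 10.3 to 29.8 on its brightest probe set and was not tested.

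Both neuropilins, which bind secreted semaphorins and also forms of VEGF, rose, beside 30.3% higher among all tested genes. Nrp2 read 347 and 341 on the wild-type arrays against 828 and 849 on the SMRTmRID arrays, 2.44 times as high on average, a shift of 1.25 ± 0.07 log2 units (SE) with an adjusted p of 2.56e-07. Its other probe sets above the filter gave 1.45 and 1.78. Nrp1 went from 583 and 576 to 905 and 871, a log2 difference of 0.60 (adjusted p = 1.57e-05), with 3 other probe sets at 0.81 to 1.03. In each of these 7 probe sets above the filter the SMRTmRID arrays lay above the wild-type arrays. The secreted ligands Sema3a and Sema3f, which use these receptors, were lower in the same comparison, as was Sema3b. Other secreted ligands went the other way: Sema3e was called higher, and so was Sema3c, with a call lost under several alternatives. In the wider pathway list Sema3g (log2 difference 1.06) and the neuropilin ligand Vegfa (1.36) were called higher too.

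Slit genes had the greatest rises among all guidance genes tested. The 2 tested Slit genes rose, beside 30.3% higher among all tested genes. Slit2, a secreted repellent, read 116 and 115 on the wild-type arrays against 1652 and 1819 on the SMRTmRID arrays. The mean was 15.04 times as high in SMRTmRID, a shift of 3.73 ± 0.08 log2 units (SE) with an adjusted p of 7.35e-10. Its 2 other probe sets went the same way, from 11.5 and 16.5 to 165 and 147 and from 1.79 and 1.33 to 133 and 154. Slit3, known for its role in the diaphragm, had 59.7 and 41.5 against 899.7 and 959, a shift of 3.84 ± 0.14 log2 units (SE) with an adjusted p of 2.16e-08, measured by 1 probe set. The mean of Slit3 was 18.4 times as high in SMRTmRID. Slit1 was not tested: its wild-type arrays read 79.4 and 23.7 and its SMRTmRID arrays 7.74 and 10.01, with a wild-type spread nearly as large as its mean (51.5 ± 39.4, SD, n = 2), and without a filter it did not pass (adjusted p = 0.0546).

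The receptor gene Robo1 fell while those ligand genes rose. Robo1 read 185 and 152 on the wild-type arrays against 87.2 and 72.6 on the SMRTmRID arrays, a shift of -0.94 ± 0.16 log2 units (SE) with an adjusted p of 0.000664. Its 2 other probe sets were below the filter, with signals of 1.95 to 24.7. They differed in direction, with log2 differences of -0.62 and 0.42. Robo2 was at 1.01 to 16.5 and was not tested, so that Robo1 was the tested Robo gene of the list.

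Netrins fell. Ntn1, the netrin that attracts commissural axons, read 908 and 918 on the wild-type arrays against 171 and 186 on the SMRTmRID arrays, 5.12 times as high on average in wild-type, a shift of -2.26 ± 0.08 log2 units (SE) with an adjusted p of 1.91e-08. Its second probe set gave a log2 difference of -1.52. Ntn4, a netrin of basement membranes that binds laminin, went from 107 and 88.0 to 15.2 and 4.25, a shift of -2.17 ± 0.30 log2 units (SE) with an adjusted p of 0.000142. The SMRTmRID signals of Ntn4 lie below the filter, so that it passed through wild-type only, which fixed the direction of its difference. Its second probe set was at 1.79 to 14.2 on all arrays.

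Of 3 tested netrin receptors 2 rose and 1 did not pass, beside 30.3% higher and 35.0% lower among all tested genes. Neo1, neogenin, which also binds repulsive guidance molecules, read 360.3 and 391.6 on the wild-type arrays against 621 and 634 on the SMRTmRID arrays, a shift of 0.72 ± 0.07 log2 units (SE) with an adjusted p of 1.88e-05, with other probe sets above the filter at 0.58 and 0.73. Unc5c had 53.6 and 65.97 against 105 and 82.4, a shift of 0.53 ± 0.20 log2 units (SE) with an adjusted p of 0.0404. Leaving out replicate 1 of wild-type (adjusted p = 0.156) or of SMRTmRID (0.233) ended the call, and so did dropping the filter (0.114), quantile normalization (0.0875) and median centring (0.0740). Over 13 alternatives its adjusted p ran from 0.0353 to 0.233. Unc5b had overlapping signals of 723 and 582 against 678 and 553 and was not called (log2 difference -0.08 ± 0.11 SE, adjusted p = 0.557). Dcc, at 12.7 to 54.7, was not tested.

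**Figure D4:**
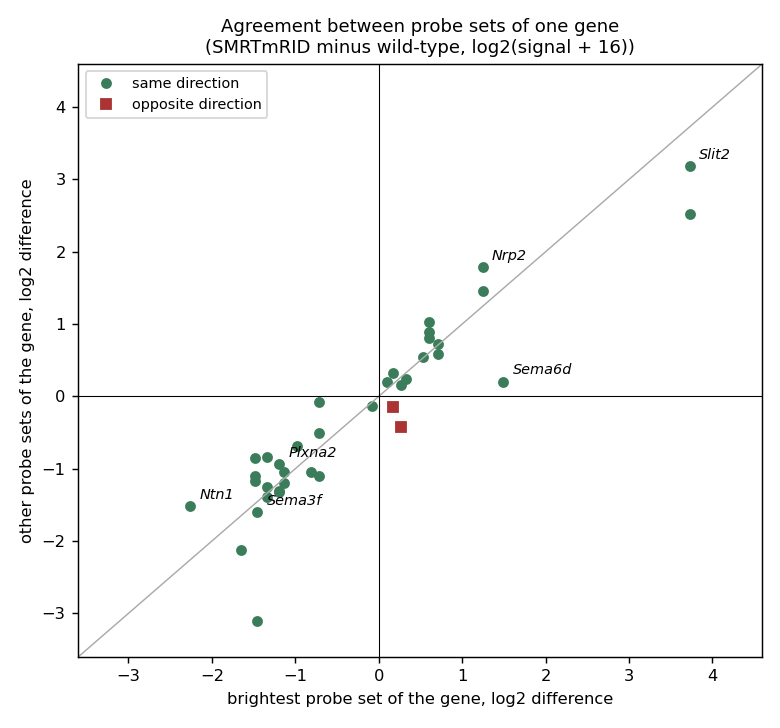
Genotype difference of the other probe sets of a guidance gene (vertical axis) against that of its brightest probe set (horizontal axis), both SMRTmRID minus wild-type in log2(signal + 16), for probe sets above the filter. The diagonal marks equal differences, and the squares, of Sema3c and Sema5a, have opposite signs.

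Other probe sets of a gene give a check within the arrays, although whether any of them share probes was not examined. Among called guidance genes 18 had other probe sets above the filter, 32 in all, and 31 of these went the same way as the brightest. The exception was Sema3c. Those counted as the same way include a probe set of Efnb1 at -0.08 and one of Sema6d at 0.21, neither of which passed. Ligands and receptors were both split: of 25 tested ligand genes 6 rose and 11 fell, and of 17 tested receptor genes 8 rose and 7 fell. Among all tested genes 30.3% were higher and 35.0% lower. The medians were -0.18 for ligands and 0.23 for receptors. The filter let 4 of the ligand genes pass through 1 genotype only (3 through SMRTmRID, 1 through wild-type), and 0 of the receptor genes. Whether ligands and receptors differ was not tested.

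Other genes of these pathways were taken from a list of 88 symbols, 84 with a named probe set, and 64 were tested. Of these 25 rose, 22 fell and 17 did not pass (73.4% called, against 65.2% of all genes), with a median log2 difference of 0.03. The filter let 5 of the 64 pass through 1 genotype only, which fixed the direction of their differences: Sema3g and Plxna4 through SMRTmRID, and Plxnb3, Flrt3 and Ngef through wild-type. Among 5 tested relatives of the guidance genes 2 rose, beside 30.3% higher among all tested genes. Sema4g went from 50.2 and 51.6 to 123 and 130.5 (log2 difference 1.09, adjusted p = 0.000367). Sema3g went from 44.8 and 23.2 to 74.98 and 97.1 (1.06, adjusted p = 0.00646) but missed the threshold once SMRTmRID replicate 2 was left out (0.0521, the highest of 13 alternatives from 0.00112 up). Plxna4, Plxnb3 and Robo3 did not pass.

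Among 14 tested co-ligands, co-receptors and other membrane partners 5 rose and 4 fell, beside 30.3% higher and 35.0% lower among all tested genes. That is 64.3% called, against 65.2% of all tested genes. Lrig1, a membrane protein that restrains receptor tyrosine kinases, read 117 and 155 on the wild-type arrays against 1159.9 and 1239 on the SMRTmRID arrays, a shift of 3.01 ± 0.11 log2 units (SE) with an adjusted p of 3.21e-08. Itga1, the alpha subunit of a collagen-binding integrin, rose by 1.68, Vegfa, a neuropilin ligand, by 1.36, and Adam10, a protease that cleaves ephrins, by 1.02. Gpc1, a glypican that binds Slit, went from 595 and 581 to 201 and 179, a shift of -1.55 ± 0.09 log2 units (SE) with an adjusted p of 4.37e-07. Flrt1, Flrt2 and Flrt3, of a family that includes ligands of Unc5 receptors, had log2 differences of -0.98, -0.55 and -0.96. The call of Flrt2 was lost when replicate 2 of wild-type (adjusted p = 0.108) or of SMRTmRID (0.0783) was left out, within 0.000185 to 0.108 over 13 alternatives. That of Flrt3 was lost when replicate 1 of wild-type (0.0720) or of SMRTmRID (0.0739) was left out, within 0.00284 to 0.303. Lrig3 (0.13), Met (0.02) and Itgb1 (-0.06) did not pass.

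Of 45 tested cytoplasmic effectors 18 rose, 18 fell and 9 did not pass, beside 30.3% higher and 35.0% lower among all tested genes. Ngef, which encodes ephexin, an exchange factor bound to Eph receptors, fell from 223 and 165 to 13.8 and 20.0, a shift of -2.67 ± 0.22 log2 units (SE) with an adjusted p of 4.88e-06. Srgap1, a Robo-associated GTPase-activating protein, went from 121 and 110.2 to 38.2 and 42.2, a log2 difference of -1.23 (adjusted p = 0.000320). Mical2, a flavoenzyme of the family that oxidises actin downstream of plexins, had a log2 difference of -1.22. The actin regulators of the Ena/VASP family did not move together: Enah rose from 1555 and 1643 to 4104 and 4155 (1.36, adjusted p = 2.18e-08), and Vasp fell from 2530.0 and 2195 to 943 and 1007 (-1.26, adjusted p = 4.03e-07), with Evl at -0.70. Sos1, an exchange factor for Ras and Rac, rose by 1.89, and Pik3r1, the regulatory subunit of PI3-kinase, by 1.05.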

How the data were processed

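Total RNA was measured on 4 single-colour Affymetrix arrays. The deposited values are MAS5 intensity signals on a linear scale, per the submitters' processing notes. The mean without the lowest and highest 2% was 200.0 on every array, so the deposited scaling was kept. Of 45101 probe sets 64 controls were left out. The platform annotation gave 34945 a single symbol, 932 several and 9160 none, and only the single-symbol probe sets were used. Symbols were those of the annotation, and their gene IDs were looked up in RefSeq tables of GRCm38.p6. Detection calls were not used here, so low signals are reported as signals.

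Signals were transformed to log2(signal + 16) and compared with limma 3.58.1 in R 4.3.3 (eBayes with a variance trend, all 4 arrays, no covariates, two-sided), adjusted over all 11057 genes with a mean signal above the median of all values (35.1). The fit was tested on simulated data. Genes given in full are, per family, up to 5 with the greatest difference among those called, without overlap between genotypes and with both arrays of the brighter genotype above the filter. Of the wider pathway list up to 4 per direction and sub-list are named by the same conditions, except 1 gene not reported here; any other was singled out with its values in view. The members and lists were chosen with earlier results of these data known. Replicate numbers did not pair the arrays (correlation of same-numbered deviations 0.012). Alternatives were pseudocounts of 1 and 64, no filter, a filter at the 75th percentile, median centring, quantile normalization, a fit without the variance trend, other probe set rules, a replicate block and each array left out. The number of arrays limits the precision. Figures were drawn with matplotlib 3.10.9.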

Additional observations from a re-analysis of the deposited data

How the results depend on the processing

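Of the 32 called guidance genes 27 kept direction and call under each of the 14 alternatives that tested them. The exceptions were Ephb6, Efnb1, Sema3c, Sema6d and Unc5c, and Sema3c alone turned direction (-0.15 with the second brightest probe set). Against 14 genes higher and 18 lower, 8 were higher with the second brightest probe set in place of the brightest, and 10 were lower with the filter at the 75th percentile, which tests fewer genes. That filter also gave 1 Eph receptor lower, 1 semaphorin higher and 1 lower, 2 plexins or neuropilins lower, 0 Slit or Robo genes lower, and 1 netrin or netrin receptor gene higher and 1 lower. With the second brightest probe set 3 ephrins were lower, 0 semaphorins higher, 0 Slit or Robo genes lower, and 1 netrin group gene each higher and lower. When probe sets were averaged per gene 1 semaphorin was higher, 0 Slit or Robo genes lower and 1 netrin group gene lower. The counts of 0 were also 0 at an unadjusted p under 0.05 by limma, and Robo1 was not among the genes tested there. In the netrin group 1 gene was higher without a filter, with quantile normalization and with median centring, and 1 to 2 when each array was left out in turn (1 without wild-type replicate 1 or SMRTmRID replicate 1). Median centring moved the median of all genes by -0.10 (log2) and left 11 guidance genes higher and 18 lower, or 37.9% of the calls higher instead of 43.8%, beside 38.4% instead of 46.4% for all genes. The replicate block gave 15 guidance genes higher and 18 lower and changed only the call of Plxna3 among them (adjusted p = 0.0412). In the pathway list Arhgef11 turned to -0.0628 with averaged probe sets, and Sipa1l1 to 0.0490 with averaged probe sets and 0.2166 with the second brightest. Precision is limited by 2 technical replicate arrays per genotype and by signals near background.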

Other observations

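Probe sets of Sema3f differed in the size of the fall. The brightest gave a log2 difference of -1.45, the second -1.60 and the third -3.10, where the third read 233 and 275 on the wild-type arrays against 9.67 and 22.5 for SMRTmRID. On the second the SMRTmRID arrays were far apart, at 191 and 56.8. For Sema6d the brightest probe set gave 1.49 and the other 3 gave 0.21, -0.17 and -0.19, the last 2 from signals below the filter.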
